A study of Mus musculus with 6 samples.

Results

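Pecr, the gene of the peroxisomal trans-2-enoyl-CoA reductase, and 9 genes of acyl-CoA thioesterases (Acot1, Acot2, Acot3, Acot4, Acot7, Acot8, Acot9, Acot11 and Acot13) were measured in mouse forebrain RNA. They were found by gene symbol, and these 10 members stood on 10 of the 23282 rows of the count tables. The animals were adult male mice of the inbred strain C57BL/6J, and the labels name no transgene or drug for either group. In the group labelled water avoidance stress (WAS), 3 mice each spent 1 h on a small platform surrounded by water, whereas in the control group 3 mice spent 1 h on the platform in a container without water. The animals were killed directly afterwards, and each library held RNA of one forebrain hemisphere of 1 mouse, taken after removal of olfactory bulbs and cerebellum, so that no brain region or cell type was separated. The comparison asked which transcripts differed in the brain at the end of this short psychological stress.

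The direction of every difference rests on the sample labels. In the files, the heading of the count column begins with WC where the label says WAS and with WS where it says control, and the sources used here do not define these letters. The sources used here differ on which set of libraries came from the stressed animals, and this could not be settled from the counts. If WC stood for control, all directions given here would be exchanged. The groups follow the labels, and WAS libraries and control libraries always mean libraries so labelled.

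Total counts lay between 9248520 and 10502029 per library. Levels are given as CPM (counts scaled to a library total of 1000000) with the SD over 3 libraries per group, and because the method reads 1 site next to the poly(A) tail of a transcript, CPM was not divided by transcript length. Poisson intervals of single counts cover counting error only. Neuronal markers (8 genes, 5182 to 6562 CPM summed) and astrocyte markers (7 genes, 4240 to 4370 CPM summed) were present in each library, and the liver gene Alb had 0 counts in all 6. Markers of some regions differed widely between libraries of 1 group. Markers of the striatum summed to 129 and 290.1 CPM in WAS replicates 1 and 3 and to 775 to 1553 CPM in the other 4 libraries, and markers of the choroid plexus to 53.2 and 16.9 CPM in WAS replicate 1 and control replicate 2 and to 931 to 1247 CPM in the others.

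Acyl-CoA thioesterases split activated fatty acids, the acyl-CoAs, into free fatty acid and coenzyme A, and so set the balance between the free and the activated form in each compartment of the cell. The enzymes belong to 2 unrelated families. Those of type I (Acot1 to Acot6) have an alpha/beta-hydrolase fold and lie side by side in one gene cluster, whereas those of type II (here Acot7, Acot8, Acot9, Acot11 and Acot13) have a hotdog fold and are scattered over the genome. Pecr acts in peroxisomes, where very long, branched and some unsaturated fatty acids are handled, and reduces the double bond of trans-2-enoyl-CoAs with NADPH. In the liver, several type I thioesterase genes are known targets of the nuclear receptor PPAR alpha. In the brain, Acot7 is known as an abundant neuronal enzyme.

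The 2 members that met the criteria for a difference between the groups (given with the comparison), Pecr and Acot3, are shown by the 250 bases before their annotated start, together with Acot2, the most abundant gene of the Acot3 cluster, in which no difference was detected. The sequences are from RefSeq on GRCm38.p6, each written 5′ to 3′ on the strand of its gene. Capitals mark CCAAT and GGGCGG on either strand, the only ones of the searched motifs present in these 3 stretches. They lie at chr1:72284322-72284571 (minus strand), chr12:84051894-84052143 (plus strand) and chr12:83987611-83987860 (plus strand).
Pecr: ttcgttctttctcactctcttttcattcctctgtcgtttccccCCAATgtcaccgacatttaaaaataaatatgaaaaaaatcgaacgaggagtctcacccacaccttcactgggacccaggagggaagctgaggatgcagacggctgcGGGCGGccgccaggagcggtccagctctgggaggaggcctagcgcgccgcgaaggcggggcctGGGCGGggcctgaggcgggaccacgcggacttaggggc
Acot3: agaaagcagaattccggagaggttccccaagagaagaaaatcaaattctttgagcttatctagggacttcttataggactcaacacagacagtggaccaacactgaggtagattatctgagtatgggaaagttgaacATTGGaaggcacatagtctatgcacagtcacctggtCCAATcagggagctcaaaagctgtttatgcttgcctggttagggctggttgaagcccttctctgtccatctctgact
Acot2: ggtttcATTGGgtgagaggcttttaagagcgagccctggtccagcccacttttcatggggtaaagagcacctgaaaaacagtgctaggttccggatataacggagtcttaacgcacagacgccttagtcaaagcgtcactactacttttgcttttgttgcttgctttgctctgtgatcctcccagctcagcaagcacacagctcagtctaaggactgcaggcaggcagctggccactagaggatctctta
The Pecr stretch had a GC content of 60.0%, the Acot3 stretch 45.2% and the Acot2 stretch 50.4%. Pecr carried 1 CCAAT and 2 GGGCGG, Acot3 2 CCAAT and Acot2 1 CCAAT. Among all 32851 promoter windows of 300 bases (250 before and 50 after the start), 37.4% held CCAAT and 35.7% held GGGCGG. The direct repeat bound by PPAR receptors, AGGTCA and again AGGTCA with 1 base between them, was searched on both strands in 11 windows of 9 members and found in 0 of them, against 0.04% of all windows. The single element AGGTCA, which every match of the repeat contains, occurred in Acot4 and Acot3, in the latter after the start, and in 16.3% of all windows. The cyclic AMP response element TGACGTCA and the glucocorticoid response element (AGAACA, 3 bases and TGTTCT) had no match in the members' windows, against 1.79% and 0.01% of all windows, and TATAAA had matches in Acot4 and Acot9 and in 13.6% of all windows. For Acot13 no promoter is shown. These matches describe letters and are not measured binding sites.

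The levels of the 10 members spanned more than 2 orders of magnitude. Acot13, which encodes a small thioesterase associated with mitochondria, and Acot7 lay at 239 and 213 CPM over all 6 libraries and together gave between 84.2% and 87.5% of the members' counts. Acot13 was above Acot7 in 6 of 6 libraries, although the ranges of both genes overlapped. After a step of 8.25 times came Acot2 (25.8 CPM), then Acot11 and Acot8 (14.4 and 14.3 CPM), Acot1 (9.24 CPM), Acot9 (5.79 CPM), Pecr (3.96 CPM), Acot3 (1.995 CPM) and Acot4 (1.64 CPM). Acot11 and Acot8 could not be ordered, with Acot11 higher in 4 of 6 libraries, and neither could Acot3 and Acot4, with Acot4 the higher in the 3 WAS libraries and Acot3 the higher in the 3 control libraries. Acot9 lay above Pecr in 5 libraries. The ranges also overlapped for Pecr and Acot3, although Pecr was higher in 6 of 6 libraries. All 10 members together took 0.0482% to 0.0591% of a library.

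**Figure D1:**
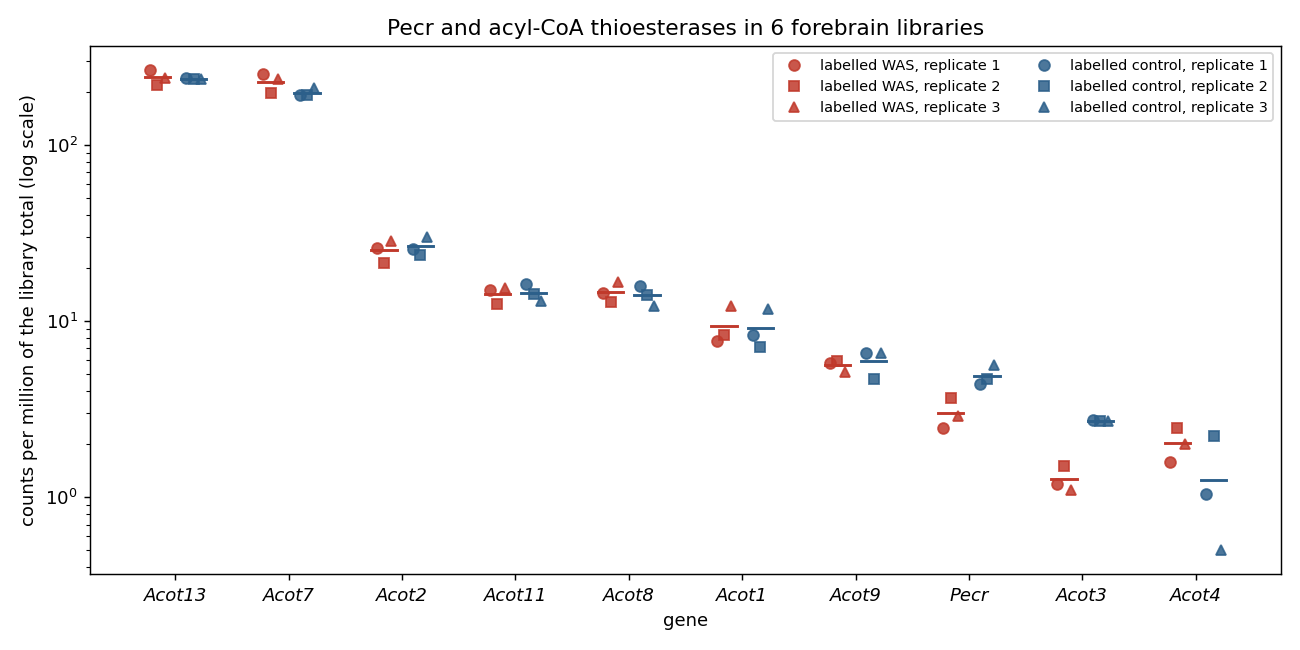
Level of each member in each library, in CPM on a log axis, with 3 libraries labelled WAS (red) and 3 labelled control (blue); symbols give the replicate and horizontal bars the group mean. Acot13 and Acot7 lie near 200 CPM, and Pecr and Acot3 are the only members whose groups do not overlap. Of all genes tested, 12.2% had groups without overlap.

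In the comparison of the labelled groups, Pecr and Acot3 were lower in the libraries labelled WAS, a direction as uncertain as the labels, and the other 8 members did not pass the test. The criteria were an unadjusted p under 0.05 in the quasi-likelihood test of edgeR and a fold change of at least 1.5, the fold used in the study. They were met by 2 of the 10 members, where 2.49% of the 15239 genes tested met them in either direction. Pecr was among the genes that the study had named on these same libraries, there in the direction opposite to that under the labels. Its call is therefore not independent evidence and the count of 2 is a description. Both members were lower, and of all genes tested 0.676% were called lower and 1.82% higher. All 10 members had passed the filter on low counts. At an adjusted p under 0.05 the test called 0 members and 0 of all genes tested, with 2 members and 7.24% of all genes at an unadjusted p under 0.05 and 0 members called by DESeq2 at its adjusted p. The log2 fold changes were below 0 for 6 members and above 0 for 4, with a median of -0.03, beside 49.8% below 0 and a median of 0.0009 for all genes tested.

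**Figure D2:**
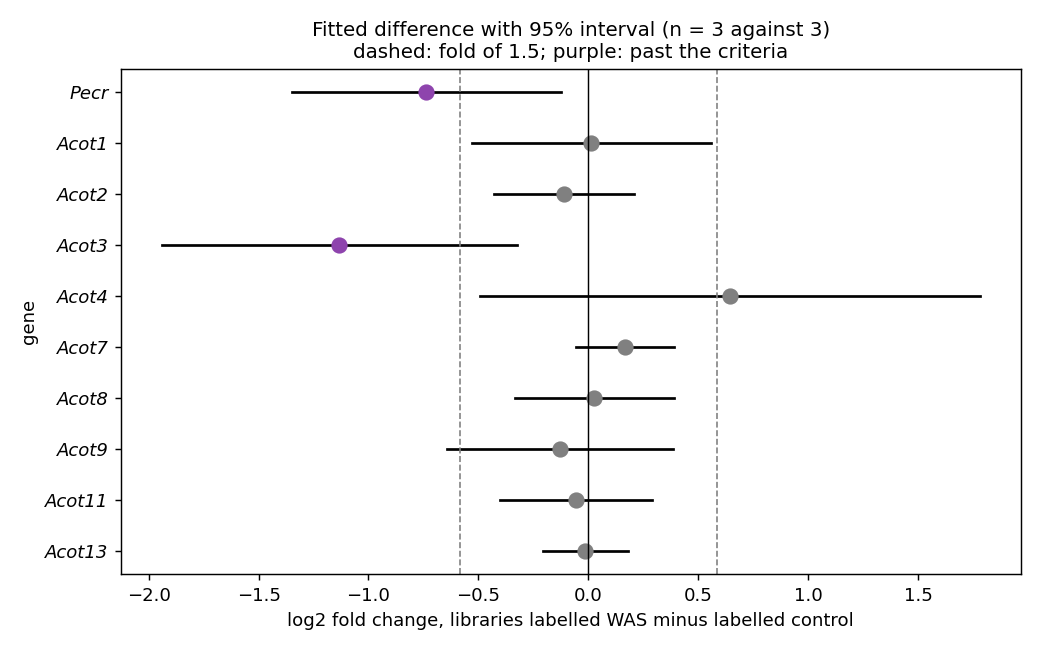
Fitted log2 fold change of each member (horizontal axis, libraries labelled WAS minus labelled control) with its 95% interval; dashed lines mark a fold of 1.5 in either direction and purple points the genes past the criteria. Pecr at -0.74 and Acot3 at -1.13 are the only points past the criteria, and the interval of Acot4 runs from -0.49 to 1.78.

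The 3 WAS libraries (replicates 1, 2 and 3) held 25, 34 and 29 reads of Pecr, and the 3 control libraries held 46, 49 and 56. On the CPM scale these were 2.48, 3.68 and 2.90 against 4.38, 4.72 and 5.61. Each WAS library was below each control library, as was the case, in one direction or the other, for 12.2% of all genes tested. The group means were 3.02 ± 0.605 CPM (SD, n = 3) and 4.90 ± 0.636 CPM (SD, n = 3), so that the level in the control libraries was 1.67 times that in the WAS libraries by the fit. The log2 fold change was -0.74 with a standard error of 0.28 and a 95% interval from -1.35 to -0.12. The unadjusted p was 0.0226 and the Benjamini-Hochberg adjusted p was 0.625 in the quasi-likelihood test of edgeR. An exact permutation test over the libraries, two-sided, gave p = 0.1, the smallest value that 3 against 3 allow.

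These are small numbers of reads. The exact Poisson 95% interval of the 34 counts in WAS replicate 2 reached from 23.6 to 47.5 and that of the 46 counts in control replicate 1 from 33.7 to 61.4, and the 2 intervals overlapped. Without WAS replicate 1 the log2 fold change was -0.62, without WAS replicate 3 it was -0.71 and without control replicate 3 it was -0.62, and in each of these Pecr no longer met the criteria. With both WAS replicates that were low in striatal markers left out, it was -0.45 and outside the criteria. Without WAS replicate 1 and control replicate 2, which were low in choroid plexus markers, it was -0.64 and also outside them.

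Pecr (ENSMUSG00000026189) lies on the minus strand of chromosome 1 at 72259167 to 72284314 in the GENCODE M21 annotation of GRCm38 and has 8 exons in its main transcript of 1186 bases. The last 500 bases of this transcript, where the method reads, shared no stretch of 50 bases with a transcript of any other gene. A shorter Pecr transcript ends inside the antisense gene D230017M19Rik, with 28.4% of its last stretches of 50 bases on the opposite strand, and the counting is not stated to use strand. Tmem169, a gene of a membrane protein, starts 54 bases from the start of Pecr in the opposite direction. It had 73, 66 and 65 counts in the WAS libraries and 80, 65 and 87 in the control libraries, and its log2 fold change was -0.15 (standard error 0.21), within the spread of the replicates. On the other side, Mreg, which encodes melanoregulin, had 77, 48 and 102 counts against 51, 44 and 42. Mreg met the criteria as a gene with more counts in WAS libraries (log2 fold change 0.76, standard error 0.27).

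Acot3 encodes a peroxisomal thioesterase of long-chain acyl-CoAs. It was counted 12, 14 and 11 times in the 3 WAS libraries, in the order of their replicate numbers, and 29, 28 and 27 times in the 3 control libraries. In CPM these were 1.19, 1.51 and 1.10 against 2.76, 2.70 and 2.71. The groups did not overlap, as was the case for 12.2% of all genes tested. The fitted level in the control libraries was 2.19 times that in the WAS libraries, a log2 fold change of -1.13 (standard error 0.37, 95% interval -1.94 to -0.33). The unadjusted p was 0.0102 and the adjusted p 0.570 by the test of edgeR, and the exact two-sided permutation test gave p = 0.1. The group means were 1.27 ± 0.217 CPM (SD, n = 3) and 2.72 ± 0.0347 CPM (SD, n = 3).

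The 3 control libraries differed by a coefficient of variation of 1.28%, whereas the counting error at the mean count of Acot3 over all libraries is 22.3%, so that this SD understates the error of the control mean. The exact Poisson 95% interval was 7.65 to 23.5 for the 14 counts of WAS replicate 2 and 17.8 to 39.3 for the 27 counts of control replicate 3. Acot3 met the criteria without each library in turn, with log2 fold changes between -1.28 and -1.04. It did not meet them when 2 libraries were left out, WAS replicates 1 and 3 (-0.88) or WAS replicate 1 and control replicate 2 (-1.10).

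Summed neuronal markers were also lower in each WAS library, at 5182 to 5862 CPM against 6001 to 6562 CPM, with 0 of the 8 marker genes past the criteria. In bulk tissue, fewer cells of a type and less RNA per cell cannot be told apart. Relative to 1000 CPM of neuronal markers, Pecr was at 0.479, 0.627 and 0.534 in the WAS libraries and at 0.716, 0.719 and 0.935 in the control libraries, and Acot3 at 0.230, 0.258 and 0.203 against 0.451, 0.411 and 0.451. On this scale the groups of Pecr and of Acot3 did not overlap. On the CPM scale, groups without overlap were seen for 12.2% of all genes tested. Relative to the same markers, Acot7 was at 48.4, 33.55 and 43.6 against 31.5, 29.1 and 35, and its groups overlapped. In which cells Pecr and Acot3 were expressed was not measured. Summed meningeal markers were at 87.4 to 142 CPM in the WAS libraries and at 59.7 to 102 CPM in the control libraries, with 2 of 6 genes called higher. Cerebellum and olfactory bulbs had been removed, and whether the counts of their listed markers came from remains of them was not tested. Cerebellar markers summed to 134, 74.0 and 118 CPM in the WAS libraries and to 72.5, 53.2 and 80.9 CPM in the control libraries, with 2 of 5 tested genes called higher. Olfactory bulb markers summed to 14.1, 11.03 and 19.5 CPM against 7.90, 6.94 and 12.5 CPM, with 1 of 4 tested genes called higher. The part of these markers in the results was not tested.

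**Figure D3:**
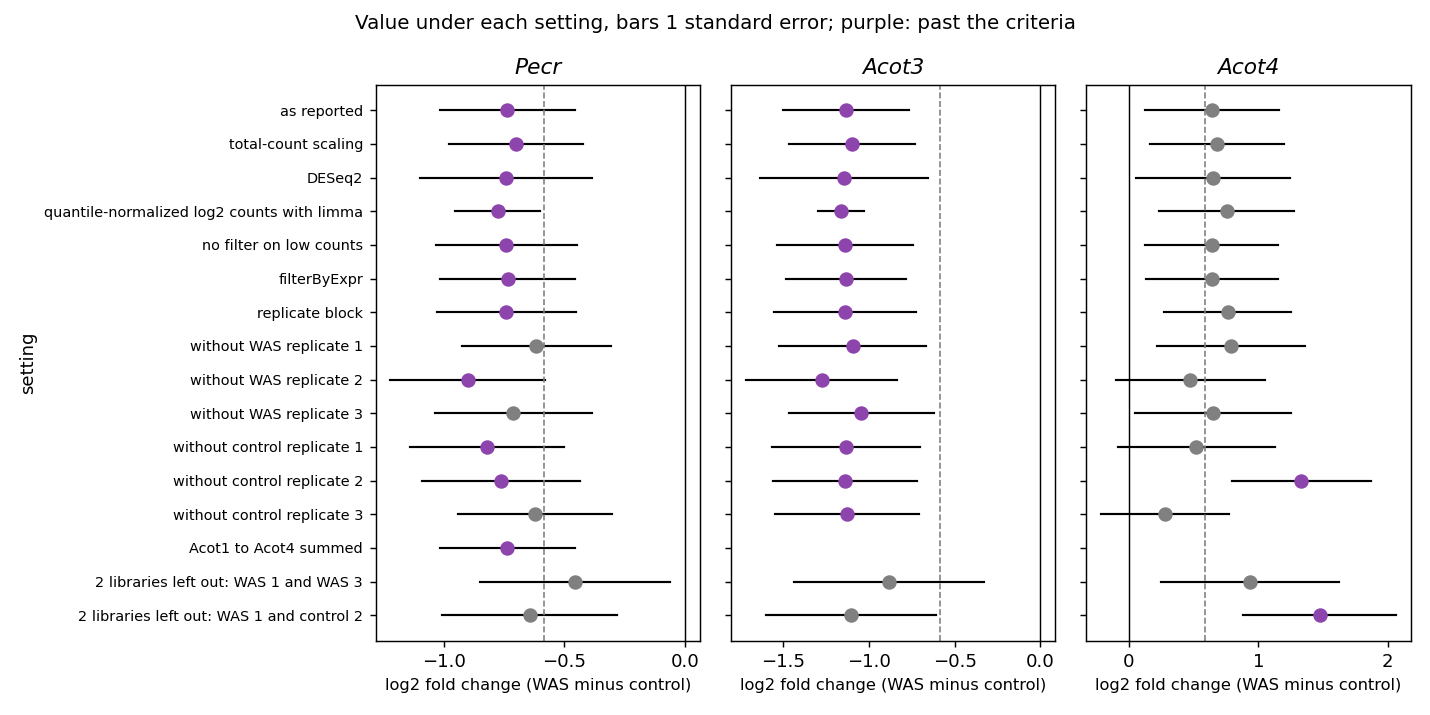
Log2 fold change of Pecr, Acot3 and Acot4 (horizontal axes, libraries labelled WAS minus labelled control) under the reported analysis and each other setting, with bars of 1 standard error, a dashed line at a fold of 1.5 and purple points past the criteria. Acot3 stays past the criteria without any single library, Pecr loses them without control replicate 3 or 1 of WAS replicates 1 and 3, and Acot4 passes them without control replicate 2; the setting with the 4 genes summed is drawn for Pecr only.

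Acot3 was the only type I gene of the cluster that met the criteria, and its difference from the other genes was not tested. The cluster lies on the plus strand of chromosome 12 and spans 123489 bases from Acot2 to Acot6, in the order Acot2, Acot1, Acot4, Acot3, Acot5 and Acot6. Acot3 (84052144 to 84060402, GRCm38) has 4 exons in its main transcript and starts 3542 bases after the end of Acot4 (84038379 to 84048601). Gm49366 on the same strand and 4732463B04Rik on the opposite strand overlap both Acot4 and Acot3 and were not analysed here.

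Acot2 encodes the mitochondrial and Acot1 the cytosolic enzyme, both acting on long-chain acyl-CoAs. Acot2 had 260, 197 and 283 counts in the WAS libraries and 269, 247 and 300 in the control libraries, at 25.2 ± 3.57 CPM (SD, n = 3) and 26.5 ± 3.23 CPM (SD, n = 3). Its log2 fold change of -0.11 ± 0.15 (standard error) had a 95% interval from -0.43 to 0.21. Acot1 had 78, 77 and 121 counts against 88, 74 and 117, and its log2 fold change of 0.01 ± 0.25 (standard error) had an interval from -0.53 to 0.56. In both genes replicate 3 was the highest library of each group. The ratio of Acot2 to Acot1 counts lay between 2.34 and 3.34 and overlapped between the groups.

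Acot4, a peroxisomal thioesterase that acts on succinyl-CoA, had 16, 23 and 20 counts in the WAS libraries and 11, 23 and 5 in the control libraries. Control replicate 3 was the lowest library and control replicate 2 had as many counts as the highest WAS library, so that the groups overlapped. Its log2 fold change of 0.64 (standard error 0.52, unadjusted p = 0.239 by edgeR) had the widest interval of the 10 members, from -0.49 to 1.78. Without control replicate 2 it was 1.33 and Acot4 met the criteria, whereas without control replicate 3 it was 0.28 and Acot4 did not meet them.

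Of the 2 cluster genes outside the members, Acot5 had 41, 47 and 30 counts against 51, 51 and 41, a difference of -0.23 ± 0.28 (standard error) on the log2 scale, with a 95% interval from -0.84 to 0.38 that overlapped that of Acot3. Acot6 had 5, 0 and 0 counts in the WAS libraries against 5, 7 and 4, too few to be tested. Dnal1, the next gene after the cluster, was at -0.14 (standard error 0.10). Summed over Acot1 to Acot4, the level was 36.4, 33.6 and 43.6 CPM in the WAS libraries and 37.8, 35.8 and 45.0 CPM in the control libraries, with overlapping groups and a fitted difference of -0.10 ± 0.13 (standard error, log2 scale). Of these summed counts, Acot3 made up 3.28%, 4.50% and 2.53% in the WAS libraries and 7.30%, 7.53% and 6.01% in the control libraries.

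**Figure D4:**
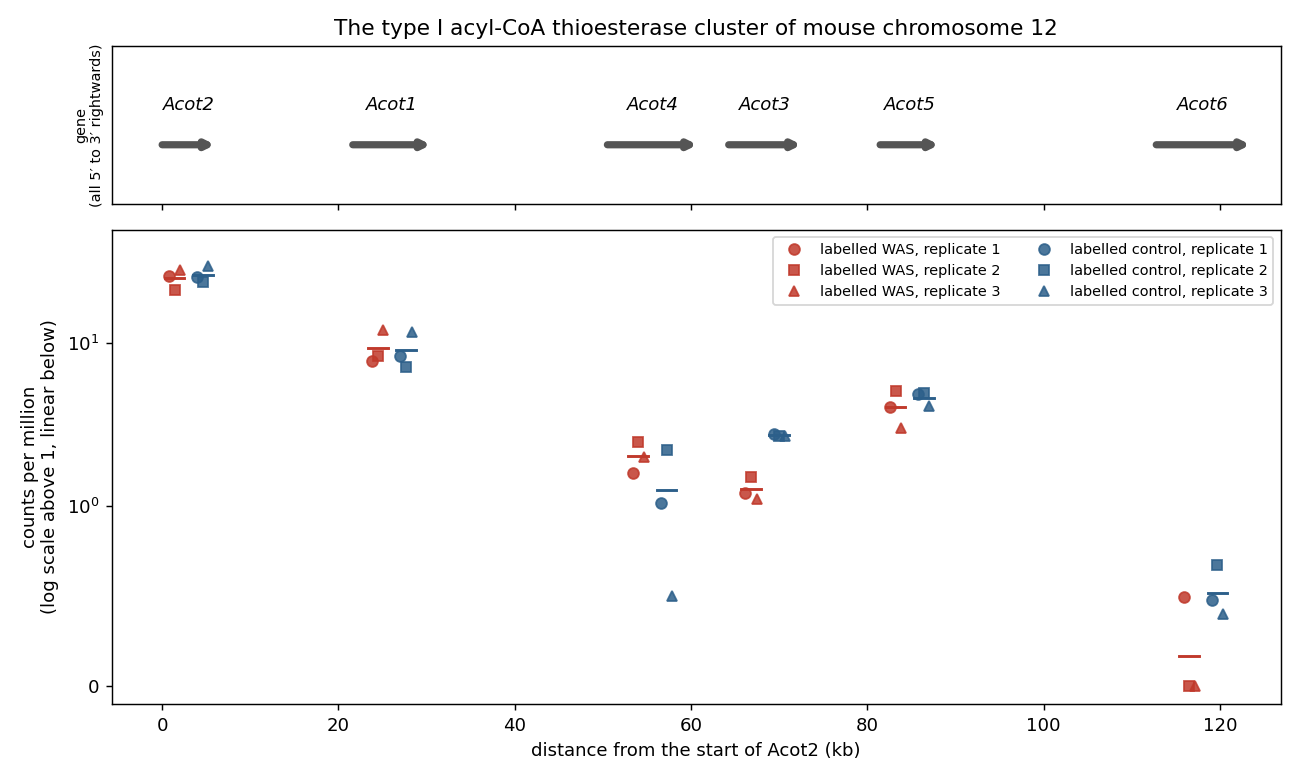
The type I cluster to scale, as distance in kb from the start of Acot2, with each gene as an arrow (above) and its level per library in CPM (below, log axis above 1 and linear below; red, labelled WAS; blue, labelled control; bars, group means). Acot3 is the only gene of the 6 whose groups do not overlap while both of its neighbours, Acot4 and Acot5, overlap. Of all genes tested, 12.2% had groups without overlap.

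Because multiple alignments were included in the counts, the type I genes were checked for shared sequence. Their coding sequences are alike, with 95.6% identical bases between Acot1 and Acot2, 85.8% between Acot3 and Acot5 and 84.0% between Acot1 and Acot3. Over the whole main transcript, 19.7% of the stretches of 75 bases (the read length) in Acot1 were also in Acot2, and 4.6% of those in Acot3 were in Acot5. The ends of the transcripts differ. In the last 500 bases of the main transcripts, Acot1 and Acot3 shared no stretch of 50 bases with another gene, and Acot2 and Acot4 shared 2 and 5 of 451 stretches in the same orientation, none of them with a thioesterase gene.

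Shorter annotated forms are less distinct. One Acot3 transcript of 1545 bases had 15.3% of its last stretches of 50 bases in common with other genes, of which Acot5 shared 9.1%, one short Acot1 transcript had 14.4% in common with Acot2, and one short Acot4 transcript had 9.3% in common with Acot6. The end of Acot5 shared 12.9% of its stretches with Acot3. Which transcript ends gave the counts was not measured, so the Acot1 to Acot4 values are uncertain to this extent.

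None of the 5 type II genes met the criteria. Acot7, the cytosolic brain acyl-CoA hydrolase, had 2524, 1819 and 2365 counts in the WAS libraries and 2024, 1984 and 2096 in the control libraries. WAS replicates 1 and 3 were above and WAS replicate 2 within the control range on the CPM scale, at 251, 197 and 237 CPM against 193, 191 and 210.1 CPM. The log2 fold change was 0.17 (standard error 0.10, 95% interval -0.06 to 0.39) and did not pass the test. Without WAS replicate 2 it was 0.26 (standard error 0.09, unadjusted p = 0.00993 and adjusted p = 0.153 by edgeR), still under the fold of 1.5, and without WAS replicate 1 it was 0.09. It was -0.05 when both WAS replicates that were low in striatal markers were left out.

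Acot13 had 2677, 2008 and 2399 counts against 2511, 2463 and 2344, or 266, 217 and 240.3 CPM against 239, 237 and 235 CPM. The WAS libraries lay on both sides of the control libraries. Its log2 fold change of -0.01 ± 0.09 (standard error) had the narrowest interval among the members, from -0.21 to 0.18, and its sign turned around with scaling by total counts (0.02). For these 2 abundant genes the intervals reached no further than 0.39 on the log2 scale, whereas for Acot4 and Acot9 a fold of 1.5 lay inside the interval.

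Acot8 encodes a peroxisomal thioesterase of broad chain length and was measured at 145, 118 and 167 counts in the WAS libraries against 166, 145 and 122. The log2 fold change was 0.03 (standard error 0.16, 95% interval -0.33 to 0.39). Acot11, whose protein carries a lipid-binding START domain and is known from brown fat, had 151, 116 and 154 counts against 171, 148 and 130, at -0.06 (standard error 0.16). Acot9, a mitochondrial thioesterase, had 58, 55 and 51 counts against 69, 49 and 66, at -0.13 (standard error 0.23). The groups overlapped in all of these 3 genes.

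The counts of these 3 genes have limits of their own. The end of Acot8 overlaps Snx21 on the opposite strand, which holds 43.2% of the last stretches of 50 bases of the Acot8 transcript, and the end of the Acot11 transcript with the longest coding sequence overlaps Fam151a in the same way (32.8%). Without a stated use of strand, reads of such partners cannot be told apart. Snx21 had a mean of 8.14 CPM and differed by -0.04 ± 0.20 (standard error, log2 scale), and Fam151a had a mean of 0.780 CPM. Acot9 has a single-exon copy, Acot10, with 97.2% identical coding bases, and shared 19.5% of its last stretches with it. Acot10 was counted at 17, 16 and 27 against 17, 25 and 26.

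By compartment, the peroxisomal members Pecr, Acot3, Acot4 and Acot8 had log2 fold changes of -0.74, -1.13, 0.64 and 0.03. The members of mitochondria or associated with them, Acot2, Acot9 and Acot13, were at -0.11, -0.13 and -0.01, and the cytosolic members Acot1 and Acot7 at 0.01 and 0.17. Acot11, at -0.06, was assigned to no compartment.

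In lists of related genes of fatty acid handling, 0 or 1 gene met the criteria, near the 2.49% called among all genes. Of 17 listed thioesterases outside the members (16 in the table), 10 were tested, 0 met the criteria and the median log2 fold change was -0.13. The most abundant were Fasn, the fatty acid synthase with its own thioesterase domain, at 160 CPM and 0.10 (standard error 0.08), and Ppt1, a lysosomal palmitoyl-protein thioesterase, at 153 CPM and -0.11 (standard error 0.08). Of the 6 enoyl reductases beside Pecr, 0 met the criteria. Tecr, which catalyses the last step of fatty acid elongation in the endoplasmic reticulum, was at 211 CPM and -0.04 (standard error 0.11), and Fasn, whose enoyl reductase domain places it in this list too, was next in abundance. Decr2, the peroxisomal dienoyl-CoA reductase, was at 81.5 CPM and -0.06 (standard error 0.10).

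In the list of peroxisomal beta-oxidation and acyl handling, 29 of 33 genes were tested, with a median of 0.03. Slc27a2, which encodes an acyl-CoA synthetase of very long chains, was the only gene past the criteria. It had 25, 17 and 35 counts in the WAS libraries and 10, 9 and 19 in the control libraries, the groups overlapped, and the fitted difference was 1.03 on the log2 scale (standard error 0.45). Phyh, the phytanoyl-CoA hydroxylase, was at 71.4 CPM and 0.06 (standard error 0.09). All 23 genes of peroxisome assembly and membrane were tested, with a median of -0.02 and Pxmp4, a peroxisomal membrane protein, past the criteria.

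Pxmp4 had 46, 43 and 42 counts in the WAS libraries against 24, 27 and 25, for a log2 fold change of 0.82 ± 0.27 (standard error). This was opposite in sign to that of Pecr. Like Pecr, Pxmp4 was named by the study on these same libraries, each in the direction opposite to that given here. Neither call is independent evidence, and both directions rest on the labels. Pex5l and Mpv17, the most abundant genes of this list, were at 0.11 (standard error 0.12) and -0.03 (standard error 0.09). Mitochondrial beta-oxidation had 24 of 25 genes tested, 0 past the criteria and a median of 0.05. Its most abundant genes were Acadsb at 0.31 (standard error 0.12, under the fold of 1.5) and Hadha at 0.11 (standard error 0.11).

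Of the acyl-CoA synthetases and acyl-CoA binding proteins, 24 of 32 were tested, 1 met the criteria (again Slc27a2) and the median was -0.01. Dbi, the acyl-CoA binding protein, was at 381 CPM and 0.27 (standard error 0.13), and Acsl3 at 343 CPM and -0.01 (standard error 0.08). Of the PPAR alpha receptors and targets, 25 of 33 were tested, 0 met the criteria and the median was 0.02, with Ppargc1a, a transcriptional coactivator of these receptors, at 0.02 (standard error 0.09). The list of unsaturated fatty acid biosynthesis had 25 of 33 genes tested, 0 past the criteria and a median of 0.05, with Scd2, a stearoyl-CoA desaturase, at 393 CPM and 0.13 (standard error 0.09). Several genes stand in more than 1 of these lists.

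**Figure D5:**
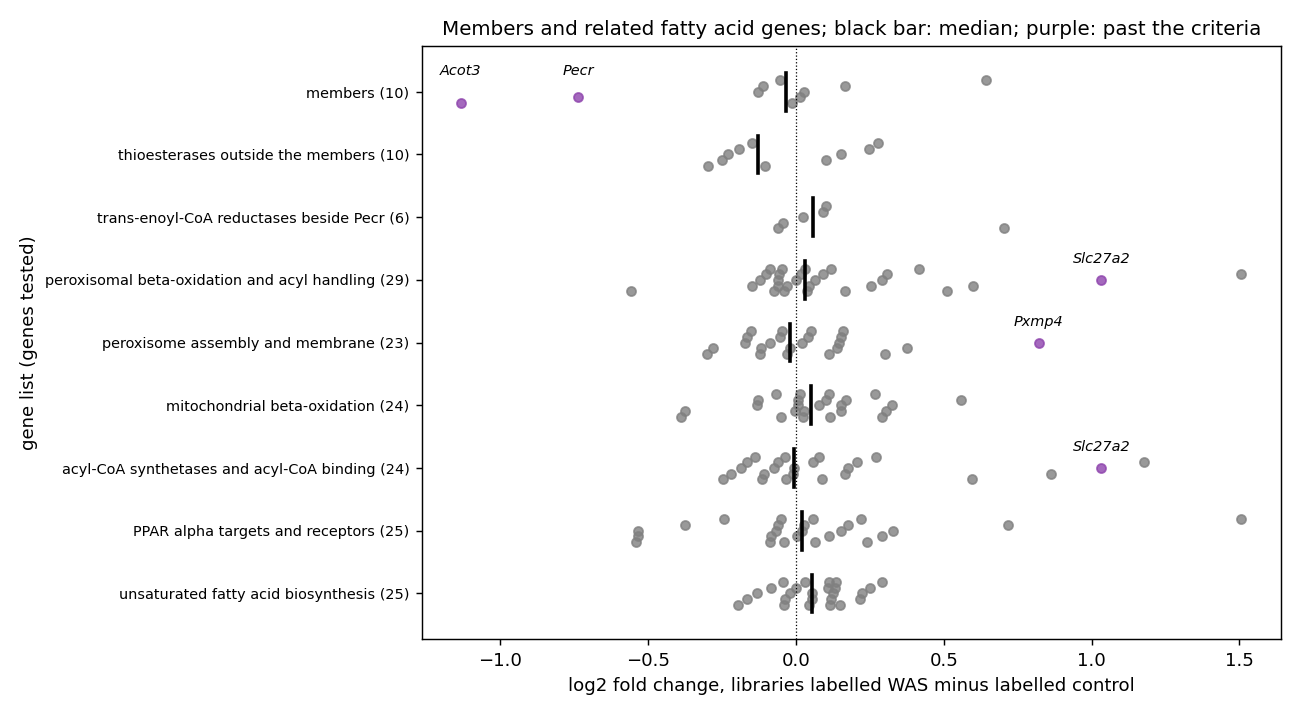
Log2 fold change (horizontal axis, libraries labelled WAS minus labelled control) of each tested gene in the members and in 8 lists of related genes, with the number tested in brackets, the median as a black bar and genes past the criteria in purple with their names. Pecr and Acot3 are lower, Slc27a2 and Pxmp4 are higher, and the medians lie between -0.13 and 0.06.

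Across the 6 libraries, the pattern of Pecr (Pearson r of log2(CPM + 1)) was most like those of Cbfa2t2 (0.996), Phactr3 (0.987) and Pdzd9 (0.987) among 13963 genes with a mean of at least 1 CPM. Cbfa2t2, which encodes a transcriptional corepressor, had 170, 188 and 176 counts in the WAS libraries against 230, 235 and 254. The pattern of Acot3 was most like F2rl2 (0.9905), the gene of a protease-activated receptor with 9, 10 and 8 counts against 21, 22 and 23, then Uhrf1bp1l and Scn2a1 (both 0.986). For Acot1 the most alike were Gstp2, Aftph and Ssr2, for Acot2 Bex1, Acta2 and Nhej1, and for Acot4 Bloc1s2, Fam110b and Nfyc. With only 6 libraries such values were reached by many genes: of the 13963, 107 had r over 0.9 with Pecr and 128 with Acot3. Pecr and Acot3 had r = 0.922 with each other, which both group differences contribute to. All these values share the same libraries and library totals and are a description only.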

How the data were processed

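RNA of 3 forebrain hemispheres labelled WAS and 3 labelled control was sequenced by QuantSeq 3′ mRNA-Seq with oligo-dT priming and single-end reads of 75 bp. The authors used Bowtie2 for alignment and Bedtools for coverage of genes, in which unique as well as multiple alignments entered. The submitters' processing notes name mm10, and the annotation is not given in the sources used here. The deposited values were whole-number read counts per gene symbol, without the quantile normalization named in the methods. All 23282 rows were kept, 44 of them repeats of a symbol.

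Counts were scaled by TMM and tested without a block by the quasi-likelihood method (R 4.3.3, edgeR 4.0.16) on the 15239 genes whose mean log2(quantile-normalized count + 1) was at least 2, with Benjamini-Hochberg adjustment over these genes. Standard errors are the log2 fold change over the square root of F, and intervals use the t distribution with the total degrees of freedom. The code was tested on simulated data. DESeq2 1.42.0, limma 3.58.1, other filters and scalings, a block and omitted libraries were alternatives. Nothing in the labels says that a replicate number was shared by animals of both groups. P-values measure the spread between the mice of each group.

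Loci and transcripts are from GENCODE M21 (GRCm38) and promoters from RefSeq (GRCm38.p6). The main transcript is the one with the longest coding sequence. Alignments of coding sequences were made with Biopython 1.88, and identity counts aligned bases only. Named by rule were all members, the 2 most abundant and the called genes of each list, the genes next to Pecr and to the Acot1 to Acot6 cluster and the 3 genes of most similar pattern. Named beyond it, after values were seen, were the paralogues Acot5, Acot6 and Acot10 and the antisense partners Snx21 and Fam151a. A gene that the rule would name is not reported here. The members, lists and tests were chosen with earlier results of these data known.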

Additional observations from a re-analysis of the deposited data

How the results depend on the processing

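In place of 2 members past the criteria, 1 passed with Acot1 to Acot4 summed to 1 feature, 0 without WAS replicates 1 and 3, 1 without WAS replicate 1 and control replicate 2 (Acot4, higher, at 1.47, with Pecr and Acot3 both lost), and 1 to 3 with each library left out in turn (3 without control replicate 2, and 1 without control replicate 3 or WAS replicate 1 or 3). The 2 settings that omit a pair of libraries were chosen after seeing the data, and the first leaves 1 library labelled WAS, which is assumed to vary like the others. Over single omissions the log2 fold change of Pecr ran from -0.90 to -0.62. It was -0.45 and -0.64 in the settings that omit 2 libraries, where Acot3 was -0.88 and -1.10. In the summed setting the value for Acot3 was that of the sum, -0.10. The sign of Pecr was kept in all 15 alternatives, and that of Acot3 in each alternative that measured it on its own. Their adjusted p ran from 0.188 to 0.9997 and from 0.170 to 0.9997 over the tools and settings of edgeR, DESeq2 and limma.

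The signs of members close to 0 turned around in some settings. Acot13 was 0.0244 with total-count scaling and 0.0026 on quantile-normalized counts, where Acot1 was -0.0147. In the summed setting Acot1 and Acot4 took the value of the sum, -0.10. Without WAS replicates 1 and 3, Acot1 was -0.16, Acot7 -0.0503 and Acot8 -0.17, and without WAS replicate 1 and control replicate 2, Acot1 was -0.0144. With single libraries left out, Acot1 ran from -0.21 to 0.25, Acot8 from -0.0803 to 0.12, Acot11 from -0.12 to 0.0295, Acot13 from -0.0911 to 0.0567 and Acot4 from 0.28 to 1.33. The cause was not tested.

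The replicate block (a term for the replicate number) gave -0.74 for Pecr and -1.14 for Acot3 and changed no call among the members. With it, 2 members and 417 of all genes tested were past the criteria, the latter in place of 380. Same-numbered libraries had correlated deviations of 0.06, 0.08 and 0.09, whereas the other pairs between the groups ran from -0.096 to 0.0115. Whether same-numbered libraries shared more than a number was not tested, and the reported fit had no block. Genes past the criteria numbered 825 without WAS replicate 2 and 264 to 452 in the other single omissions. Depth limits Pecr, Acot3 and Acot4, with means of 39.8, 20.2 and 16.3 counts per library.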

Other observations

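The ratio of Acot13 to Acot7 counts was 1.06, 1.10 and 1.01 in the WAS libraries and 1.24, 1.24 and 1.12 in the control libraries, and the groups did not overlap (exact two-sided permutation test, p = 0.1, the smallest value that 3 against 3 allow). Neither gene met the criteria on its own, and a ratio within a library does not say which of its genes differed. It was chosen after the values were seen, and 12.2% of all genes tested had groups without overlap.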
